A study of Mus musculus with 11 samples.

Results

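The insulin-like growth factor (IGF) system of the mouse brain cortex was followed through 9 genes of 26921 counted: the ligands Igf1 and Igf2, the receptors Igf1r and Igf2r, and the binding proteins Igfbp2, Igfbp3, Igfbp4, Igfbp5 and Igfbp7. The genes were chosen by name, and each was read from the count table of every one of 11 single-cell RNA libraries. The libraries were made from C57BL/6 cortex dissociated with enzymes and depleted of myelin, so neurons and oligodendrocytes are few. Juvenile (4 libraries, postnatal day 10, P10), Adult (3 libraries, 7 to 11 weeks) and Aged (2 libraries, 18 months) mice were untreated. The EAE group (2 libraries) consisted of females of 7 to 11 weeks in which experimental autoimmune encephalomyelitis, a T cell-driven inflammation of the central nervous system, was induced with a peptide of myelin oligodendrocyte glycoprotein in Complete Freund's Adjuvant and with pertussis toxin, and cells were taken at the peak of disease. The untreated mice received neither adjuvant nor toxin, so the disease and its inducing agents cannot be told apart. Each Juvenile and Adult library pooled 6 mice and each Aged and EAE library 3. The study's methods give female mice unless stated otherwise. The Y-linked gene Eif2s3y was among the leading genes of a Juvenile endothelial cluster of 489 cells. Juvenile pools may thus include males, which was not tested.

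IGF1 and IGF2 are secreted peptides that signal through the tyrosine kinase IGF1R and drive growth, survival and metabolism. IGF2R, which is also the mannose 6-phosphate receptor, takes IGF2 up and delivers it to lysosomes. The IGF-binding proteins hold the ligands outside cells and can extend their life, withhold them from IGF1R or bring them to a cell surface, and IGFBP7 binds IGFs only weakly. In the brain the choroid plexus is a known source of IGF2 for the cerebrospinal fluid, and IGF1 supports neuronal growth and myelination.

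After filtering, 50625 cells remained, with 15755504 to 34326349 unique molecular identifiers (UMIs) per library. Cells were clustered without the 9 genes and named from marker genes, so that each name below stands for cells like that type: 21137 endothelial cells (ECs), 8223 microglia, 6677 choroid plexus epithelial cells, 2410 T and NK cells, 2350 perivascular macrophages (PVMs), 2174 other macrophages, 1501 mural cells (pericytes and smooth muscle cells, SMCs), 1309 astrocytes, 1172 fibroblasts and 6 rarer classes, and a further 866 cells stayed unnamed. The tissue labelled cortex thus held choroid plexus. Levels are CPM (library-scaled counts), the UMIs of a gene scaled to the total UMIs of the same cell type in a library. Adult 2 and 3, Juvenile 1 and 2, and Juvenile 3 and 4 came close to sampling noise and were each summed, which left 2 units a group (n = 2) for every test and every mean ± SD. The chi-square per degree of freedom between summed libraries was 1.37 to 2.42 in ECs, against 11 to 26.8 between libraries kept apart. The Aged pair and the EAE pair were as close as the summed ones (1.86 to 2.46), but with no other library of their group to compare they were kept as 2 units each, so their n = 2 may overstate independent samples. No source says that the units were prepared apart, so p-values measure only the spread between these libraries, which may be technical. Adult 1 stood apart: 818 of its 857 ECs could not be given a vessel segment, and Ttr, the choroid plexus transcript for transthyretin, reached 50525 CPM in its ECs against 20028 to 20644 in Adult 2 and 3 and 3726 to 9044 in the other groups. Libraries shared 0.466% to 1.66% of cell barcodes. A level alone cannot tell fewer expressing cells within a type from less of the RNA in each, and the 3' counts do not allow levels of different genes to be compared.

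Igf1 and Igfbp4 are shown by the 250 bases before their RefSeq starts (GRCm38.p6), because these genes were the ligand and the binding protein called higher at P10 in the most cell types. Capitals mark a match to one of 4 motifs searched on both strands: TATAAA (the TATA box), GAGGAA (the core bound by the myeloid factor PU.1 and other ETS proteins), GGGCGG (the GC box) and CACGTG (the E-box).
Igf1, chr10:87860861-87861110, plus strand: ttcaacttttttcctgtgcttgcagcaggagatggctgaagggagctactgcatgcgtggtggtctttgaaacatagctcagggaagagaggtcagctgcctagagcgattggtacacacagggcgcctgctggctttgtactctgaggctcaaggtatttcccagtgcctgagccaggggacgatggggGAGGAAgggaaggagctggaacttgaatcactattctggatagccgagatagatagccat
Igfbp4, chr11:99040994-99041243, plus strand: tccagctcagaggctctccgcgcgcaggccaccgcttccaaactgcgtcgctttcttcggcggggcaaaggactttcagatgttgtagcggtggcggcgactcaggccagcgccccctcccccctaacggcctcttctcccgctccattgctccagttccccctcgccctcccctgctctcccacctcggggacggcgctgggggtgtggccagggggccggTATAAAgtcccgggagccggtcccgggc

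The Igf1 window held GAGGAA 60 bases before the start and the Igfbp4 window held TATAAA 28 bases before it, and neither held another of the 4 motifs. Of 32851 such windows over all genes, 12.4% held TATAAA, 23.3% GAGGAA, 32.7% GGGCGG and 6.02% CACGTG. A match describes the letters only. In the mm10 annotation (GRCm38) Igf1 spans chromosome 10, 87858265 to 87937042, on the plus strand, so the printed Igf1 window lies inside its annotated span, upstream of another start. Igfbp4 spans chromosome 11, 99041244 to 99054392 (plus), Igf2 chromosome 7, 142650766 to 142666816 (minus), Igf1r chromosome 7, 67952827 to 68233668 (plus), and Igf2r chromosome 17, 12682406 to 12769664 (minus). Igfbp2 (plus, 72824503 to 72852474) and Igfbp5 (minus, 72857932 to 72874884) are neighbours on chromosome 1, Igfbp3 lies on chromosome 11, 7206086 to 7213923 (minus), and Igfbp7 on chromosome 5, 77349240 to 77408041 (minus). Exons of Igf2 overlap the antisense gene Igf2os (231 UMIs in all libraries) and exons of Igfbp7 overlap Polr2b (7228 UMIs) on the other strand. The strand setting of the counting is not given in the sources used here, so reads there may be shared, against totals of 30111 UMIs for Igf2 and 300123 for Igfbp7.

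Each ligand had its own highest cell type. Igf1 was a PVM transcript: over the 8 units its level in PVMs ran from 174 to 555 CPM, and it was higher in PVMs than in fibroblasts, the next type, by 3.66 (SE 0.31) on the log2 scale in 8 of 8 units (edgeR with unit as a block, adjusted p = 5.53e-08). Fibroblasts (0 to 85.1 CPM) and choroid plexus cells (2.09 to 55.4 CPM) did not differ beyond their spread (adjusted p = 0.683), and choroid plexus exceeded microglia (0.876 to 35.9 CPM) by 0.92 (adjusted p = 0.00177). Macrophages outside the PVM cluster held 0 to 9.06 CPM of Igf1 and B cells 0 in every library. Among whole cell types Igf2 was highest in choroid plexus cells at 241 to 748 CPM, 3.06 (SE 0.34) above mural cells in 8 of 8 units (adjusted p = 1.76e-06). A part of the fibroblasts, cluster 25, held more at P10, at 1158 to 1949 CPM against 695 to 763 in choroid plexus. Mural cells (8.47 to 223 CPM) and fibroblasts (0 to 717 CPM) came next with no difference past the test (adjusted p = 0.201), and fibroblasts exceeded PVMs by 2.96 (adjusted p = 0.0182). Such tests between unlike cell types call 40.3% to 78.7% of all genes, so a call alone says little, and the sizes carry the comparison.

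Of the receptors, Igf1r was an EC transcript at 113 to 500.2 CPM, 2.40 (SE 0.13) above mural cells in 8 of 8 units (adjusted p = 4.81e-10). Mural cells, ependymal cells and astrocytes followed at 20.2 to 140.0, 31.6 to 100.1 and 24.6 to 68 CPM, and neighbours among them did not differ past the test (adjusted p = 0.82 and 0.219). Igf2r was spread more evenly, at 54.8 to 81.9 CPM in ependymal cells, 44.6 to 66.4 in choroid plexus cells and 26.3 to 71.6 in mural cells. The order of its highest pair depended on the scaling: by CPM ependymal cells were higher in 3 of 4 units, but the fit, which rescales libraries by TMM, placed choroid plexus higher by 0.69 (SE 0.22, adjusted p = 0.00888), and 1 gene, Ttr, takes a large share of choroid plexus UMIs. Choroid plexus exceeded mural cells by 0.92 (adjusted p = 2.41e-04).

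**Figure D1:**
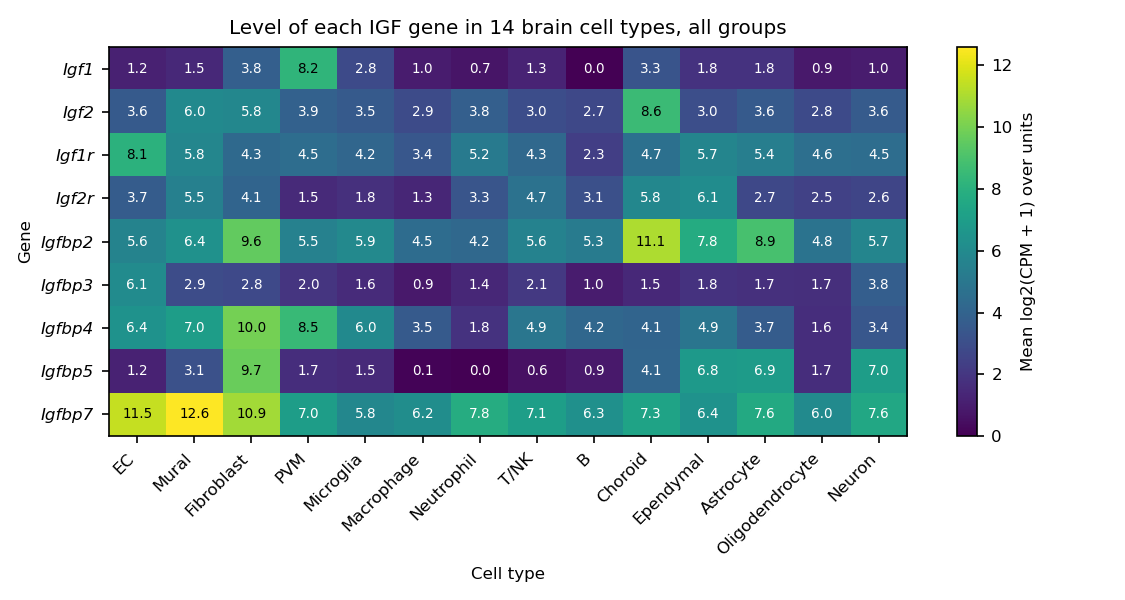
Heatmap of the mean level of each of the 9 genes (rows) in 14 cell types (columns), as log2(CPM + 1) averaged over the units of each type. For 8 of the genes the highest mean is in the source named in the text: PVMs for Igf1, choroid plexus for Igf2 and Igfbp2, ECs for Igf1r and Igfbp3, mural cells for Igfbp7 and fibroblasts for Igfbp4 and Igfbp5.

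The binding proteins divided the tissue among them. Among whole cell types Igfbp7 was highest in mural cells (5011 to 7122 CPM in Adult libraries), 1.04 (SE 0.11) above ECs in 8 of 8 units (edgeR adjusted p = 8.00e-07), and ECs did not differ from fibroblasts past the test (adjusted p = 0.353). Fenestrated ECs held more in Juvenile 1 and 2, at 9584 and 8913 CPM against 5916 and 6600 in mural cells. Fibroblast cluster 25 held 10271 CPM in Aged 1, on 10 cells, against 6020 in mural cells, and 1498 to 4841 in its other libraries. Igfbp3 was an EC transcript, 2.93 (SE 0.68) above neurons (adjusted p = 0.00617, 6 of 8 units). Among whole cell types Igfbp2 was highest in choroid plexus cells at 1484 to 2939 CPM, 2.19 (SE 0.41) above fibroblasts (adjusted p = 0.00203), while fibroblasts and astrocytes did not differ past the test (adjusted p = 0.178). Fibroblast cluster 25 held more Igfbp2 at P10, at 4080 to 5621 CPM against 2681 to 3029 in choroid plexus. Igfbp5 marked fibroblasts, 2.60 (SE 0.27) above neurons in 8 of 8 units (adjusted p = 1.40e-06), with neurons and astrocytes next and not separated (adjusted p = 0.406). For Igfbp4, fibroblasts and PVMs shared the top with no difference past the test (0.95, SE 0.72, adjusted p = 0.317), and PVMs exceeded mural cells by 1.80 (adjusted p = 0.00564). In all, for 8 of the 9 genes the highest type by CPM differed from the next past the test, Igfbp4 being the exception. This count takes either direction, and for Igf2r the fit placed the next type higher, against the CPM order.

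Genes with the most similar pattern across 14 cell types were read from 8259 genes reaching 50 CPM in some type, by Pearson's r of log2(CPM + 1), as a description over types that share libraries. Igf1 ran closest to Folr2, a macrophage folate receptor (r = 0.948), Fcna (0.942) and C2 (0.941), all highest in PVMs. Igf1r ran closest to Ptprg (0.91) and Igfbp3 to Kif26a (0.958), all highest in ECs. Igfbp7 ran closest to Rhoj (0.967), Igfbp5 to Mdk (0.972), Igfbp2 to Nqo1 (0.955) and Igf2 to Fabp3 (0.923). The likeness was weakest for Igfbp4, with Sh3pxd2a at 0.885, and Igf2r, with Larp1b at 0.864.

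Against Adult, most calls at P10 were higher and most calls in EAE were lower. Of 62 gene by cell type tests (genes that passed the count filter of their type), 21 passed for Juvenile against Adult with 15 higher and 6 lower, where the same test called 21.1% of all genes tested over the types. EAE against Adult gave 21 of 61 calls, 4 higher and 17 lower, with 17.4% of all genes called. Aged against Adult gave 2 of 62, both lower, with 1.36% called. All 3 contrasts share the Adult libraries. With the Aged pair and the EAE pair each summed to 1 unit, assumed to vary like the Adult and Juvenile units, EAE gave 10 calls, 8 of them among the 21, Aged gave 3, 1 of them among the 2, and Juvenile gave 18, 17 of them among the 21. The 8 EAE calls kept were Igf1 in choroid plexus and microglia, Igf1r and Igfbp4 in choroid plexus, Igfbp4 in PVMs and in T and NK cells, Igfbp2 in T and NK cells and Igf2 in astrocytes, and Igf2 in astrocytes was the Aged call kept. Among tests in which the gene reached 20 CPM in either group, 21 of 56, 14 of 51 and 1 of 51 passed for Juvenile, EAE and Aged. Of these, 15, 4 and 0 were higher and 6, 10 and 1 lower. Free choroid plexus RNA was estimated from the Ttr found in the same cells. It came to the larger part of the measured level in 5 of 15 EAE calls outside choroid plexus, 1 of 15 at P10 and 1 of 2 in Aged. In places the estimate exceeded the measured level, as for Igfbp2 in Adult SMCs (201 CPM estimated, 88.2 measured). It therefore overstates free RNA at least there and gives no exact share.

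By cell type at P10, choroid plexus had 5 genes higher and 1 lower of 9 tested (25.3% of all its genes were called higher and 25.7% lower) and ECs 4 higher and 1 lower of 9 (18.1% and 17.3%), so that 51% and 35.3% of their genes moved either way. Microglia had 2 higher and 1 lower of 7 (7.22% and 9.31%), PVMs 2 and 1 of 6 (2.34% and 4.44%), astrocytes 2 and 1 of 6 (4.4% and 6.69%), and mural cells 0 and 1 of 6 (8.55% and 9.72%). In EAE, choroid plexus had 1 higher and 5 lower (15.2% and 16.1%, 31.3% in all), ECs 2 and 3 (14.1% and 10.4%), microglia 0 and 4 (10.8% and 11%), PVMs 0 and 2 (10.3% and 7.64%), T and NK cells 0 and 2 of 5 (6.65% and 8.02%), astrocytes 0 and 1 (1.35% and 0.629%) and mural cells 1 and 0 (2.05% and 0.85%, 2.9% in all). In Aged the calls were 1 lower of 9 in ECs (1.74% of genes called higher and 1.82% lower, 3.56% in all) and 1 lower of 6 in astrocytes (0.366% lower), while choroid plexus (0.59% higher, 0.776% lower) and mural cells (0.0304% in all) had 0 calls by edgeR and by DESeq2, with 3 of 9 and 1 of 6 genes at an unadjusted p under 0.05. Microglia, PVMs and T and NK cells also had 0 by edgeR in Aged, where DESeq2 called 2, 1 and 1, although Igfbp2 was called lower within both PVM subsets, as given with that gene. B cells had 0 of 3 genes called at P10 by edgeR, where 1.18% of their genes were called, with 1 at an unadjusted p under 0.05 and no adjusted p from DESeq2. In fibroblasts edgeR called 0 of 6 genes in each contrast, with 3 at an unadjusted p under 0.05 and 2 called by DESeq2 each time, on 63 Adult, 77 Aged and 38 EAE cells, and edgeR called 0.189%, 0% and 0.851% of all fibroblast genes for Juvenile, Aged and EAE.

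**Figure D2:**
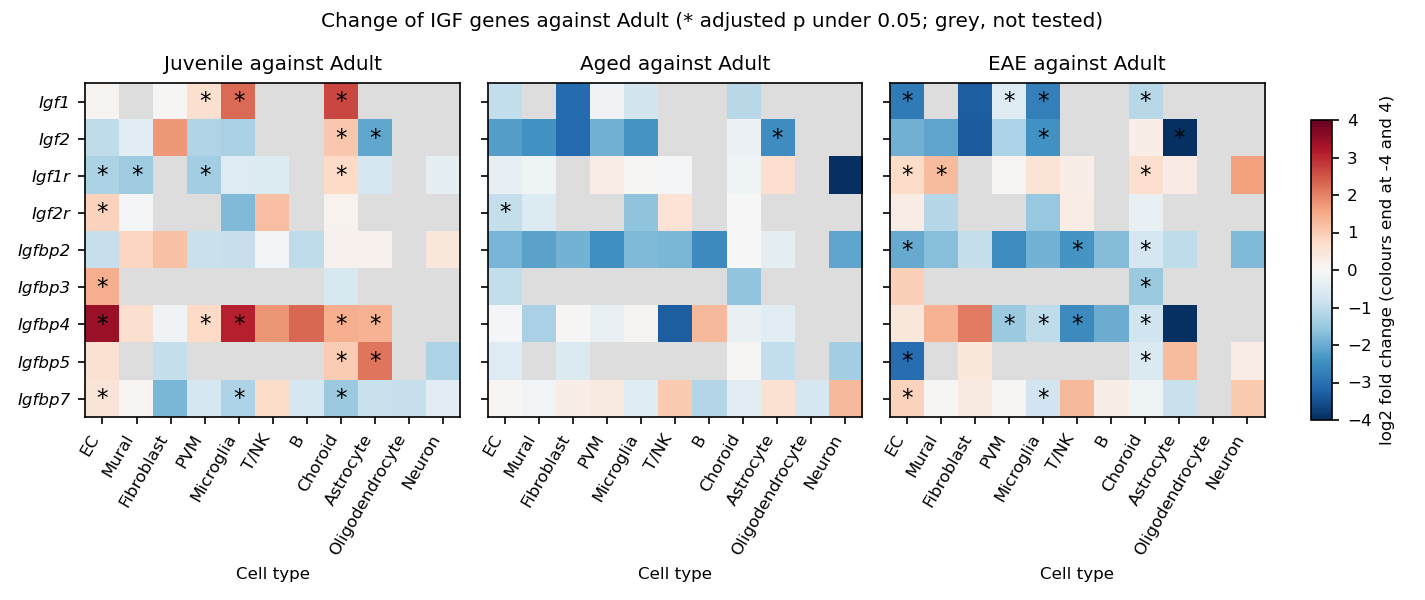
Heatmaps of the fitted log2 fold change against Adult of each gene (rows) in each cell type (columns) for Juvenile, Aged and EAE, with asterisks on tests past an adjusted p of 0.05 and colours ending at 4 in either direction. The Juvenile panel carries 15 higher and 6 lower calls, the Aged panel 2 lower calls and the EAE panel 4 higher and 17 lower calls.

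Igf1 was called higher at P10 than in Adult in PVMs, choroid plexus cells and microglia. In PVMs it measured 573, 539, 448 and 553 CPM in Juvenile libraries, 293, 318 and 333 in Adult, 271 and 262 in Aged, and 174 and 214 in EAE. Juvenile libraries all lay above Adult and EAE libraries all below. Juvenile PVMs were 1.57-fold above Adult (527 ± 40.7 against 309 ± 22.5 CPM, SD, n = 2, log2 change 0.65, SE 0.15, edgeR adjusted p = 0.0106), and EAE PVMs were 1.43-fold lower (194 ± 28.5 CPM, log2 change -0.51, SE 0.15, adjusted p = 0.0222). Aged PVMs fell outside the Adult range but not past the test (log2 change -0.15, adjusted p = 0.734). Thinned to 1500 UMIs a cell, 48.6% of Juvenile, 35.2% of Adult, 30.4% of Aged and 22.7% of EAE PVMs held an Igf1 UMI (unthinned 70.7%, 60.2%, 44.4% and 41.5%), against 1.56% of Juvenile T and NK cells, a type that should lack it. Neither PVM call held without cells that a second clustering left unnamed, 56.4% of Juvenile, 21.3% of Adult and 24% of EAE PVMs. In EAE these 143 cells lay in clusters led by genes of mural cells (Acta2, Rgs5), ECs (Flt1, Cldn5) and microglia (Tmem119) and held 81.1 and 122 CPM of Igf1. Without unnamed PVMs the P10 change was 0.59 (adjusted p = 0.105), close to its size with them, and the EAE change was smaller at -0.27 (adjusted p = 0.371). With Aged and EAE as 1 unit each they were 0.66 (adjusted p = 0.0891) and -0.48 (adjusted p = 0.284). Free choroid plexus RNA, scaled by the Ttr found in PVMs, amounts to 0.37% of the PVM level at most in these contrasts.

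Choroid plexus cells held little Igf1 in Adult (7.44, 8.17 and 6.78 CPM) and more at P10 (45.7, 55.6, 55.4 and 55.3 CPM). This 6.38-fold rise (log2 change 2.67, SE 0.18, edgeR adjusted p = 1.84e-08) was the largest of Igf1. EAE libraries read 4.14 and 3.32 CPM (log2 change -1.12, SE 0.25, adjusted p = 0.00349) and Aged libraries 2.09 and 4.73 CPM (-1.10, adjusted p = 0.093). Microglia ran the same course at 37.3, 31.8, 35.4 and 36.5 CPM in Juvenile, 4.6, 11.4 and 8.45 in Adult, 1.84 and 6.52 in Aged and 0.943 and 0.876 in EAE. They rose 4.8-fold at P10 (log2 change 2.26, SE 0.36, adjusted p = 9.65e-04) and fell by 2.74 on the log2 scale in EAE (SE 0.60, adjusted p = 0.00581), with no overlap with Adult in either case. The fall in EAE rests on few counts, 4 Igf1 UMIs in each EAE library against 6, 7 and 6 in the Adult libraries. EAE microglia lay mostly in cluster 4, those of Adult 1 in cluster 22 and the others in cluster 1, and few microglia carried a UMI: 4.18% of Juvenile and 0.954% of Adult cells at equal depth. ECs held 0.184 to 4.36 CPM, and their fall in EAE (log2 change -2.82, adjusted p = 0.0301) lies at that level.

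PVMs split into a Lyve1+ subset and an MHCII+ subset, the antigen-presenting kind. Lyve1+ PVMs carried 1.26 (SE 0.32) more Igf1 on the log2 scale (edgeR adjusted p = 0.0189) and 1.16 (SE 0.13) more Igfbp4 (adjusted p = 4.52e-07) than MHCII+ PVMs of the same units, the 2 calls among 4 genes tested, where 30.3% of all genes were called. For Igf1 the order was reversed in Juvenile 1, at 462 CPM in Lyve1+ against 1035 in MHCII+ PVMs, and held in every other library with a value for both. Within Lyve1+ PVMs, Igf1 was 462, 570.0, 588 and 651 CPM in Juvenile, 349, 322 and 342 in Adult, 404 and 355 in Aged and 269 and 296 in EAE. The Juvenile libraries again lay above Adult and the EAE libraries below, neither past the test (0.54, SE 0.18, adjusted p = 0.0896, and -0.13, SE 0.17, adjusted p = 0.677, where 3.98% and 18.7% of genes were called). Of 348 Adult Lyve1+ PVMs, 143 formed a cluster led by the haemoglobin genes Hba-a2, Hba-a1, Hbb-bs and Hbb-bt, and its part was not tested. No Lyve1+ cluster of Adult or Juvenile had a Lyve1+ marker among its top 10 genes. Among MHCII+ PVMs, Juvenile libraries read 1035, 258 and 426 CPM against 88, 135 and 132 in Adult (1.90, SE 0.42, adjusted p = 0.0117, 6.2% of genes called), on 12 to 27 cells a library. Juvenile 2, with 6 such cells, enters the summed unit but has no value of its own. The Juvenile MHCII+ class was 1 cluster of 70 cells whose leading genes included Tmem119 and Olfml3, known from microglia, beside H2-Aa and Cd74, and the part of that make-up was not tested. These within-subset comparisons were added after the data were seen.

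Igf2 in choroid plexus cells measured 734, 763, 695 and 705 CPM at P10, 379.7, 247 and 234 in Adult, 258 and 262 in Aged, and 407 and 391 in EAE. All Juvenile libraries exceeded all others, 2.12-fold above Adult (724 ± 33.9 against 310.1 ± 98.4 CPM, log2 change 1.08, SE 0.16, edgeR adjusted p = 3.60e-05). Both EAE libraries lay above the Adult range, short of a call (0.26, adjusted p = 0.225). Fibroblasts were also highest at P10 but lowest in EAE and Aged, at 705, 728, 479 and 468 CPM at P10, 120.0, 138 and 328 in Adult, 29.8 and 12.8 in Aged and 30.3 and 0 in EAE, with no call (adjusted p = 0.111, 0.342 and 0.063). Mural cells were variable, at 73.2 to 238 CPM in Juvenile, 89.3 to 223 in Adult, 54.4 and 8.47 in Aged and 45.4 and 30.1 in EAE, with no call. Pericytes held 269 to 475 CPM in Juvenile, 151 to 271 in Adult, 74.7 and 16.3 in Aged and 56.5 to 123 in EAE, and SMCs 0 to 61.3 CPM. The lower Aged pericyte level passed the test (log2 change -2.35, SE 0.44, adjusted p = 0.0233, 0.403% of pericyte genes called). The groups held different pericyte clusters: 165 of 328 Adult pericytes, 157 of them from Adult 1, were in cluster 1, led by haemoglobin genes with Enpp2, Clu and Ttr, against 8 of 210 in Aged. Without that cluster the Aged change was -2.37 (SE 0.48, adjusted p = 0.0259, 0.405% called). For Igf2, choroid plexus RNA scaled by Ttr came to 17.2% of the Adult pericyte level.

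Astrocyte Igf2 was called lower in all 3 contrasts. It measured 68.9, 96.3 and 54.9 CPM in Adult, 7.75 to 32.3 in Juvenile (log2 change -2.07, SE 0.41, edgeR adjusted p = 0.00113), 14.3 and 13.1 in Aged (-2.49, SE 0.54, adjusted p = 0.029), and 0 in both EAE libraries. The EAE libraries held 194350 UMIs in astrocytes, in which 3 counts over the group would be 15.4 CPM, so EAE was at least 4.72-fold lower (adjusted p = 0.0123). Adult astrocytes, 152 cells, also held the most Ttr, at 35147 to 68198 CPM against 5871 to 20378 in the other groups. Choroid plexus RNA scaled by Ttr amounts to 65.6% of Adult astrocyte Igf2, and its part in these calls was not tested. Microglial Igf2 was called lower in EAE (6.13 and 4.6 CPM against 52.8, 14.7 and 12.7, log2 change -2.43, SE 0.62, adjusted p = 0.0279), where the same estimate comes to 124% of the Adult level.

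**Figure D3:**
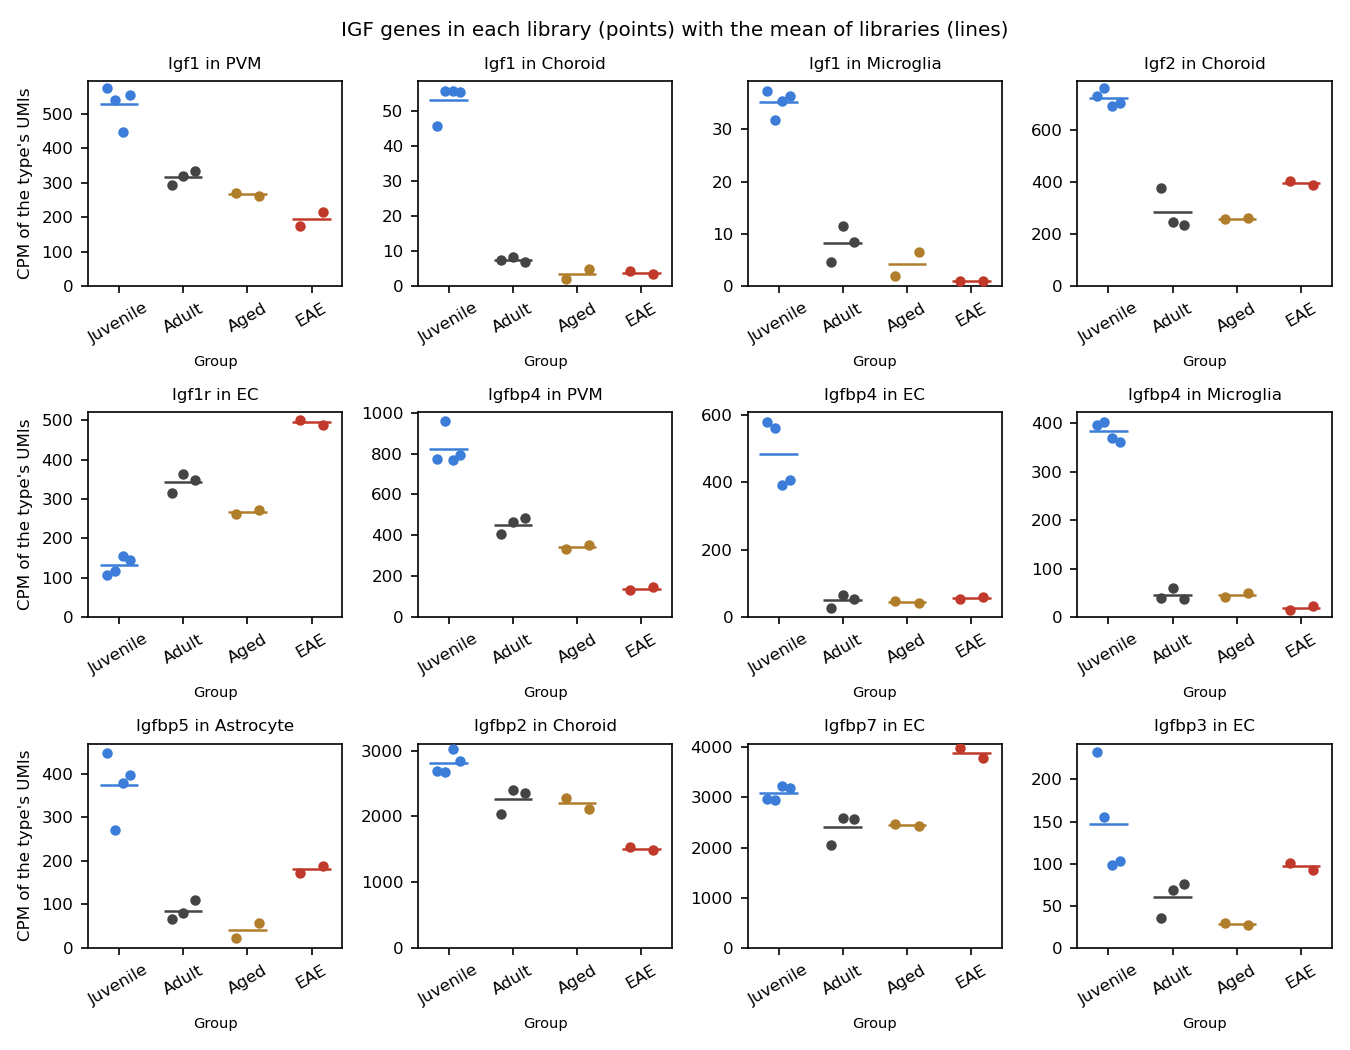
Strip panels of the level (CPM, linear axes from 0) of a gene in a cell type in each library, grouped as Juvenile, Adult, Aged and EAE on the x axis, with 1 point per library and a bar at each group's mean. Igf1 in PVMs runs from 448 to 573 CPM at P10 to 174 and 214 in EAE, Igf1r in ECs from 108 to 154 up to 489 and 500.2, and Igfbp4 in microglia from 362 to 403 down to 15.3 and 21.9.

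Igf1r in ECs was lowest at P10 and highest in EAE. The libraries read 108, 117, 154 and 146 CPM at P10, 315, 365 and 349 in Adult, 262 and 271 in Aged and 500.2 and 489 in EAE, and no library of any group fell into the range of another. Juvenile ECs lay mostly in cluster 6, Adult ECs in cluster 2 (those of Adult 1 in cluster 14), Aged ECs in clusters 0 and 2 and EAE ECs in clusters 0 and 5. P10 was 2.4-fold below Adult (131 ± 26.7 against 336 ± 29.9 CPM, log2 change -1.26, SE 0.15, edgeR adjusted p = 2.17e-04), EAE 1.67-fold above (495 ± 7.85 CPM, 0.74, SE 0.15, adjusted p = 0.00738), and Aged not past the test (-0.33, adjusted p = 0.239). With Aged and EAE as 1 unit each the P10 call held (adjusted p = 0.0036) and the EAE change of 0.79 did not pass (adjusted p = 0.129). At equal depth 19.6% of Juvenile, 39.6% of Adult, 32.3% of Aged and 50.1% of EAE ECs held an Igf1r UMI (unthinned 53.7%, 63.1%, 46.4% and 68.4%), against 2.84% to 3.24% of T and NK cells. The mural class read 20.9, 19.5, 28.5 and 18.1 CPM in Juvenile, 41.2, 61.1 and 83.1 in Adult, 50.2 and 55 in Aged and 140.0 and 132 in EAE. They were 2.68-fold lower at P10 (log2 change -1.42, SE 0.32, adjusted p = 0.0086) and 2.39-fold higher in EAE (1.25, SE 0.30, adjusted p = 0.0396). In EAE 53 of its 72 Igf1r UMIs (73.6%) came from 70 unnamed cells, against 14 of 50 in Adult, and 1 unnamed mural cluster was led by EC genes (Cldn5, Slc2a1, Ly6c1). The summed level of 8 EC markers in the mural class was 5250.2 and 6524 CPM in EAE, 2054 to 2557 in Adult and 378 to 708 at P10. Pericytes held 13.7 and 45.2 CPM of Igf1r in EAE against 31.2 to 41.9 in Adult, and without unnamed cells neither the EAE change (0.28, adjusted p = 0.83) nor the P10 change (-1.001, adjusted p = 0.0757) passed.

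PVM Igf1r, 24.5, 32.1 and 28.8 CPM in Adult, was also lower at P10 (7.94, 3.62, 19.5 and 15.1 CPM, log2 change -1.40, SE 0.39, edgeR adjusted p = 0.0373), but not past the test without unnamed PVMs (-1.37, adjusted p = 0.225). Choroid plexus went the other way, at 35.4, 33, 38.6 and 36.5 CPM in Juvenile against 20.4, 16.7 and 16.9 in Adult (0.80, SE 0.14, adjusted p = 2.62e-04), and shared the rise in EAE (33.7 and 30.3 CPM, 0.66, SE 0.15, adjusted p = 0.00325). Microglia stayed within 10.7 to 22.1 CPM in all libraries, with no call. Neurons ran from 0 to 203 CPM, with no call.

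ECs were divided by vessel segment through a second clustering within each group, and that division was not equally firm everywhere. Over 5 random starts of the clustering, Adult arterial ECs numbered from 248 to 942 and Aged venous ECs from 89 to 687, whereas Juvenile arterial ECs stayed within 468 to 478 and Adult capillary ECs within 2336 to 2684. Capillary ECs ran from 2217 to 3229 in EAE and from 1899 to 3763 in Aged, and EAE venous ECs from 638 to 1194. Values below are from 1 start, with the range over starts beside the main changes. Adult 1 gave only 15 arterial, 14 capillary and 10 venous ECs. Of 1330 Juvenile capillary ECs, 439 formed a cluster led by the immune genes Cd74, Ccl3, Ccl4 and H2-Aa, and 204 and 224 of them came from Juvenile 1 and 2. None of the 3 Juvenile capillary clusters, of 614, 439 and 277 cells, had a capillary marker among its top 10 genes, so the other 2 were named by score alone as well.

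Among segments, Igf1r was highest in capillaries. Against the other named ECs of the same unit it was higher in capillary ECs (1.04, SE 0.09, edgeR adjusted p = 1.82e-06) and lower in arterial (-1.84, SE 0.45, adjusted p = 0.0232) and cycling ECs (-0.77, SE 0.14, adjusted p = 1.68e-04), each called in 5 of 5 starts. Venous ECs lay lower short of a call in the start shown (-0.72, adjusted p = 0.0505) and were called lower in the other 4. Of 37 tests of the 9 genes in 5 EC classes 12 were called, where 10.3% to 25.9% of all genes were called by class. Capillary Igf1r read 163, 463 and 437 CPM in Adult, 147 to 227 in Juvenile, 324 and 347 in Aged and 696 and 700.5 in EAE. It was lower at P10 (-0.95, SE 0.27, adjusted p = 0.0168, 26.6% of genes called, -1.18 to -0.95 over the starts). Without the cluster led by immune genes the change was -0.91 (adjusted p = 5.57e-05). That fit called 36.1% of genes, so its smaller p is not read as firmer support. In EAE capillary Igf1r was higher (0.92, SE 0.28, adjusted p = 0.0354, 14.6% called, 0.86 to 1.01 over the starts). Venous ECs rose alike in EAE, from 116, 274 and 266 CPM in Adult to 430.5 and 434 (0.93, SE 0.20, adjusted p = 1.44e-04, 18.5% called, 0.80 to 0.94 in the 4 starts that could be tested). EAE named 1125 cells venous against 303 in Adult, in clusters whose leading genes included Serpina3n and Lrg1. The paper reports inflammatory ECs in EAE that resemble capillary and postcapillary venular ECs and raise Lcn2, Icam1 and Lrg1. The make-up of the venous class may thus differ, and its part in the EAE changes of venous ECs, here and below, was not tested. Aged venous ECs read lower, at 49.3 and 79.1 CPM (-1.88 in the start shown), in a class of 89 to 687 cells over the starts. In arterial ECs the change of Igf1r had no fixed direction: over the 5 starts it ran from -1.95 to 1.05 in EAE and from -1.16 to 1.32 at P10, and no direction is read from it.

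Igf2r was called in ECs only. It measured 25.5, 23.2, 16.3 and 19.2 CPM at P10, 12.8, 10.9 and 11.4 in Adult, 6.03 and 6.05 in Aged and 12.4 and 13 in EAE. Juvenile ECs were 1.88-fold higher (log2 change 0.91, SE 0.18, edgeR adjusted p = 0.00379) and Aged ECs 1.94-fold lower (-0.95, SE 0.20, adjusted p = 0.038) than Adult. The Aged call was not kept with the Aged pair summed to 1 unit (-0.92). Capillary ECs without the Juvenile cluster led by immune genes changed by -0.56 in Aged, not past the test (edgeR adjusted p = 0.287). Choroid plexus RNA scaled by Ttr amounts to 44% of the Adult EC level, and its part in the Aged call was not tested. In choroid plexus itself Igf2r ran from 42.9 to 70.8 CPM over all libraries with no call (adjusted p = 0.448 for Juvenile, 0.991 for Aged and 0.119 for EAE).

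**Figure D4:**
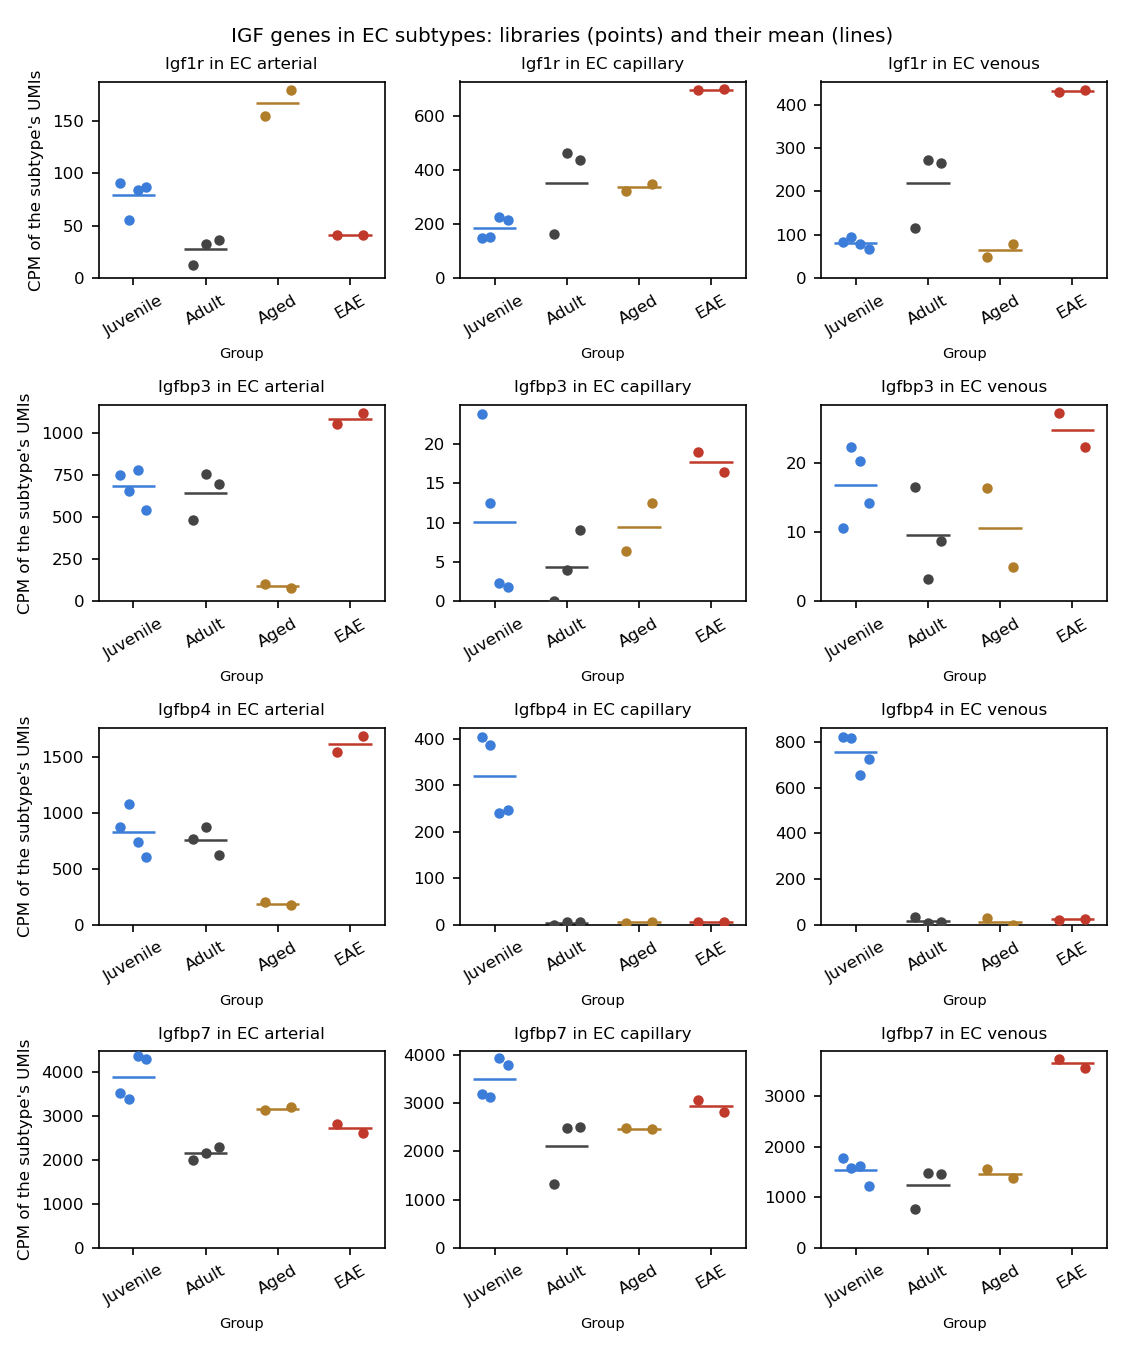
Strip panels of Igf1r, Igfbp3, Igfbp4 and Igfbp7 (rows) in arterial, capillary and venous ECs (columns), in CPM by library and group. Igf1r in EAE stands at 696 and 700.5 CPM in capillary and 430.5 and 434 in venous ECs, above Adult in both, and Igfbp4 in venous ECs stands at 657 to 820.2 CPM at P10 against 8.83 to 33.1 in Adult.

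Igfbp4, a protein that sequesters IGFs until it is cleaved, was the most changed binding protein at P10. ECs held 579, 559, 391 and 407 CPM in Juvenile libraries, 28.1, 65.1 and 54.5 in Adult, 47 and 41.2 in Aged and 52.2 and 59.7 in EAE. The P10 level was 11.1-fold above Adult (484 ± 120.5 against 43.9 ± 22.4 CPM, log2 change 3.47, SE 0.35, edgeR adjusted p = 6.72e-04), and both the Aged and the EAE libraries lay within the Adult range. Microglia held 397, 403, 370.2 and 362 CPM at P10, 39.8, 58.9 and 38 in Adult, 42.2 and 50.4 in Aged and 15.3 and 21.9 in EAE. They were 8.65-fold above Adult at P10 (3.11, SE 0.18, adjusted p = 5.17e-07) and lower in EAE (-1.02, SE 0.20, adjusted p = 0.00307, and 0.0642 with EAE as 1 unit), with no overlap either time. At equal depth 42.7% of Juvenile ECs and 42.4% of Juvenile microglia held an Igfbp4 UMI, against 3.75% and 6.84% in Adult (unthinned 76%, 61.7%, 6.41% and 11.3%). In T and NK cells the share was 21.9% in Juvenile and 4.44% in Adult.

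PVMs had Igfbp4 at 774, 960.1, 769 and 795 CPM at P10, 405, 463 and 484 in Adult, 331 and 352 in Aged and 131 and 147 in EAE. Each group lay apart from the next. P10 was 1.73-fold above Adult (0.79, SE 0.14, edgeR adjusted p = 0.00218, and 0.52, adjusted p = 0.222, without unnamed PVMs), EAE 2.82-fold below (439 ± 48.2 CPM in Adult, log2 change -1.50, SE 0.15, adjusted p = 1.23e-06, and 0.00247 with EAE as 1 unit), and Aged not past the test (-0.30, adjusted p = 0.365). The fall in EAE was seen in Lyve1+ PVMs (171 and 195 against 441, 559.8 and 530.5 CPM, -1.29, adjusted p = 5.49e-06, 18.7% of genes called) and in MHCII+ PVMs (66.6 and 76.8 against 286, 151 and 289 CPM, -1.65, adjusted p = 7.93e-04, 6.67% called). Choroid plexus repeated the pattern at a low level, 41.5 to 45 CPM at P10 (1.45, SE 0.17, adjusted p = 3.89e-06), 11.2 to 15.9 in Adult and 8.74 and 8.85 in EAE (-0.81, SE 0.20, adjusted p = 0.00569). Astrocytes rose at P10 from 0 to 32.1 CPM in Adult to 46.5 to 92.6 CPM (1.38, SE 0.42, adjusted p = 0.031). Without a call, neurons read 40.2 to 84.3 CPM and B cells 57.2 and 93.3 at P10, against 7.71 to 20.5 and 13.6 to 24.5 in Adult. T and NK cells, also without a call, read 140 to 330 CPM at P10 against 0 to 86.5 in Adult. Free Igfbp4 RNA from other cell types was not estimated, so its part in the P10 calls, those of microglia and ECs included, was not tested. T and NK cells were called lower in EAE (6.93 and 14.2 CPM, -2.55, SE 0.51, adjusted p = 0.00605), although Adult 3 read 0 and overlaps.

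Fibroblast Igfbp4 in EAE stood at 2805 and 3363 CPM against 280.1, 1104 and 1345 in Adult, 850.2 and 732 in Aged and 583 to 810.3 in Juvenile, short of a call (log2 change 2.09, SE 0.51, edgeR adjusted p = 0.0775). Fibroblast cluster 25 held 2.01 more Igfbp4 on the log2 scale than cluster 13 (adjusted p = 7.35e-06), more Igf2 (2.06, adjusted p = 3.62e-05) and more Igf1 (1.44, adjusted p = 0.00236), whereas Igfbp5 was 1.99 higher in cluster 13 (adjusted p = 4.22e-06), 4 calls of 8 in 3 units with 19.7% of all genes called. EAE fibroblasts were 14 and 9 cells of cluster 25 beside 6 and 9 of cluster 13, whereas Adult fibroblasts were 8 and 55 cells, so the make-up of the class moved with the level and its part was not tested.

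Vessel segments differed in Igfbp4 as well. Arterial ECs were 4.86 (SE 1.16) above other ECs on the log2 scale (edgeR adjusted p = 0.0245), and capillary ECs were lower (-3.42, SE 0.74, adjusted p = 0.0199), both in 5 of 5 starts. Capillary ECs held 403, 387, 240.0 and 247 CPM at P10 and 0 to 6.82 CPM in every library of the other groups (5.78, SE 0.30, adjusted p = 2.50e-11, 26.6% of genes called). Within the cluster led by immune genes Igfbp4 read 413 and 390.4 CPM in Juvenile 1 and 2, and in the other capillary clusters it read 228 to 318 CPM over the 4 Juvenile libraries. Without that cluster the change was 5.38 (SE 0.18, adjusted p = 5.28e-191). That fit called 36.1% of genes against 26.6% with the cluster, on the same 2 units a group. Its smaller p-values are therefore not read as firmer support. Venous ECs held 820.2, 816, 657 and 725 CPM at P10 against 33.1, 8.83 and 9.91 in Adult (6.32, SE 0.33, adjusted p = 2.00e-29, 23.9% called) and 20.7 and 27.2 in EAE (1.32, SE 0.39, adjusted p = 0.00935, 1.21 to 1.86 in the 4 starts that could be tested), where Adult 1, at 33.1 CPM on 10 cells, lies above both EAE libraries. Arterial ECs read 769, 870.3 and 623 CPM in Adult, 607 to 1076 in Juvenile and 1537 and 1679 in EAE, and the higher EAE level was called in 2 of 5 starts (0.93 to 2.20). Aged arterial ECs read 199 and 173 CPM (-2.04, adjusted p = 6.71e-09), called lower in 2 of 5 starts (-2.15 to -0.60). At P10 Igfbp4 was called higher in pericytes and lower in SMCs. Pericyte Igfbp4 went from 8.38 to 41.5 CPM in Adult to 161 to 292 in Juvenile (3.52, SE 0.37, adjusted p = 8.85e-08, 27.8% called), and SMC Igfbp4 from 290.3 to 626 CPM to 123 to 209 (-1.52, SE 0.29, adjusted p = 0.00492, 14% called). SMCs were 65 of 426 mural cells in Adult and 296 of 530 in Juvenile, and different clusters held most of them, clusters 3, 5 and 11 in Juvenile and clusters 6 and 10 in Adult. Clusters 5, 10 and 11 had no SMC marker among their top 10 genes, nor did pericyte clusters 0, 1 and 4 (396, 174 and 128 cells) have a pericyte marker, and SMC cluster 5 and pericyte clusters 0, 1 and 7 each had 1 marker of another cell type there. Cluster 4 held 128 of 132 Juvenile pericytes and no Adult ones. Without cluster 1 the pericyte change was 3.60 (SE 0.51, adjusted p = 4.63e-06, 24.1% called). Cluster 11 was led by the cycling genes Pbk, Cdk1 and Top2a. Without cluster 11 the SMC change was -1.28 (SE 0.29, adjusted p = 0.0127, 10.5% called), and without all 3 of these clusters no fit could be made, since Adult 1 kept under 10 cells. The part of this make-up in the difference was not tested further.

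**Figure D5:**
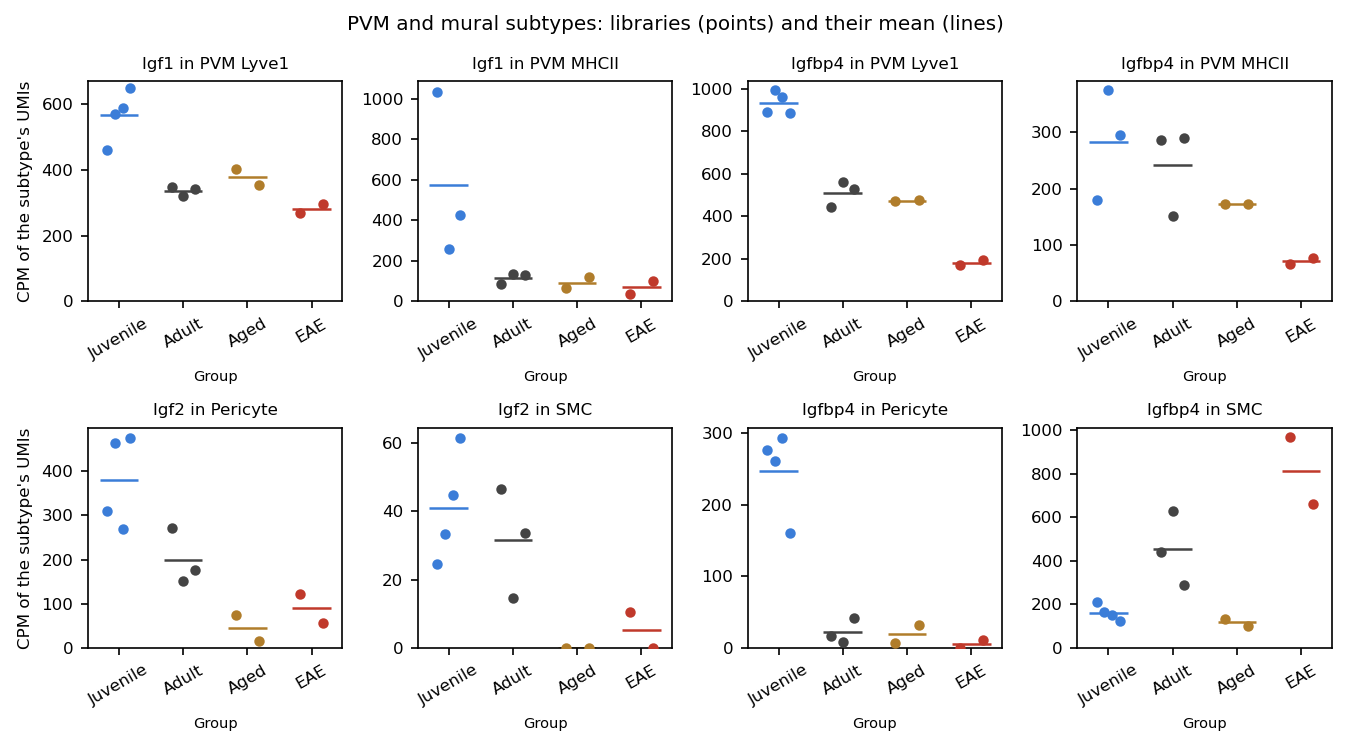
Strip panels of Igf1 and Igfbp4 in Lyve1+ and MHCII+ PVMs and of Igf2 and Igfbp4 in pericytes and SMCs, in CPM by library and group. Igfbp4 at P10 lies at 161 to 292 CPM in pericytes, above Adult, and at 123 to 209 CPM in SMCs, below Adult.

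Igfbp5, a binding protein that adheres to extracellular matrix, rose at P10 in astrocytes and choroid plexus. Astrocytes held 448, 271, 378 and 397 CPM in Juvenile, 66.2, 80.3 and 109.8 in Adult, 22.8 and 57.6 in Aged and 172 and 189 in EAE. P10 was 4.39-fold above Adult (372 ± 20.6 against 80.2 ± 19.7 CPM, log2 change 2.13, SE 0.28, edgeR adjusted p = 5.25e-06). Both EAE libraries exceeded all Adult libraries without a call (1.27, adjusted p = 0.0682). Choroid plexus went from 12.6 to 15.9 CPM in Adult to 27.1 to 37.9 at P10 (1.004, SE 0.17, adjusted p = 1.64e-04) and 9.44 to 11.7 in EAE (-0.59, SE 0.20, adjusted p = 0.0314). Fibroblasts, the main source, read 760.3, 1506 and 1052 CPM in Adult, 465 to 628 in Juvenile, 713 and 731 in Aged and 979 and 1694 in EAE, with no call. ECs held 3.23 CPM at most, and their fall in EAE (-3.05, adjusted p = 0.0131) is from 0.793 to 2.45 CPM, of which choroid plexus RNA scaled by Ttr amounts to 76.3%.

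Igfbp2, which binds IGF2 with preference and is abundant in cerebrospinal fluid, fell in choroid plexus in EAE. Adult libraries read 2032, 2404 and 2354 CPM, EAE libraries 1531 and 1484, Aged 2277 and 2118, and Juvenile 2681, 2681, 3029 and 2838. The 1.6-fold drop passed the test (2205 ± 245 against 1507 ± 33.5 CPM, log2 change -0.68, SE 0.15, edgeR adjusted p = 0.00332), but not with EAE as 1 unit (-0.66, adjusted p = 0.164). The Juvenile libraries all exceeded Adult without a call (0.19, adjusted p = 0.32). Fibroblast Igfbp2 stood at 2067 to 2659 CPM at P10, 866 to 1094 in Adult, 328 and 231 in Aged and 525 and 482 in EAE, each group apart from Adult and none called (adjusted p = 0.111, 0.0958 and 0.104). Astrocytes held 604 to 884, 369 to 659.7, 421 and 539, and 344 and 219.9 CPM in the same order of groups, with no call (adjusted p = 0.0508 for EAE). In ECs and in T and NK cells Igfbp2 was called lower in EAE (log2 changes -2.01, adjusted p = 0.0154, and -2.37, adjusted p = 0.0261). Choroid plexus RNA scaled by Ttr came to 188% and 183% of those Adult levels, and its part in these calls was not tested. Within PVM subsets, compared after the data were seen, Lyve1+ PVMs read 195, 92.4 and 115 CPM of Igfbp2 in Adult, 21.1 and 46.9 in Aged, 20.5 and 23.3 in EAE and 37.2 to 88.7 in Juvenile, and every library of the other groups lay below Adult. All 3 contrasts were called (-2.09, adjusted p = 0.00258, in Aged, -2.61, adjusted p = 2.46e-05, in EAE and -1.66, adjusted p = 0.0159, at P10, where 2.3%, 18.7% and 3.98% of genes were called). MHCII+ PVMs were called lower in Aged (-3.45, adjusted p = 8.35e-04, 0.964% called) and in EAE (-3.16, adjusted p = 2.19e-04, 6.67% called), at 6.68 to 21.2 CPM against 78.9 to 181 in Adult. Choroid plexus RNA scaled by Ttr came to 169% of the Adult level in Lyve1+ and 163% in MHCII+ PVMs, and it fell from 227 to 74.2 and 29.4 CPM in Adult, Aged and EAE Lyve1+ PVMs, so it moved with these calls and its part was not tested.

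Igfbp3, a carrier of IGFs in plasma, was an arterial transcript. Arterial ECs were 4.48 (SE 0.56) above the other ECs of their unit (edgeR adjusted p = 8.81e-04), and capillary (-3.97, SE 0.54, adjusted p = 0.00241) and venous ECs (-2.65, SE 0.30, adjusted p = 4.63e-04) were lower, each in 5 of 5 starts. The arterial level was 754, 655, 783 and 544 CPM at P10, 482, 760.0 and 698 in Adult, 106 and 81.7 in Aged, and 1055 and 1117 in EAE. Aged libraries lay below and EAE libraries above all Adult libraries. The Aged fall was called in 5 of 5 starts (-2.82, SE 0.24, adjusted p = 1.04e-11, 9.38% of arterial genes called), with a size of -2.92 to -1.47 over them. Aged named 973 cells arterial where Adult named 250, and those Aged cells also read 155 and 179 CPM of Igf1r, the gene highest in capillaries, against 13 to 36.6 in Adult, so the make-up of the class moved with the level and its part was not tested. The EAE rise was also called in 5 of 5 (0.88, SE 0.23, adjusted p = 0.0164, 3.75% called), at 0.83 to 1.97. EAE named only 114 cells arterial, of more ECs than Adult, and 2 further EAE clusters of 723 and 575 cells with arterial markers as their second score stayed unnamed, so this class too was not made up alike. At P10 the change ran from 0.02 to 1.11 and was called in 3 of 5 starts, but not in the one shown (adjusted p = 0.84). Over all ECs the values were 232, 156, 97.9 and 103 CPM at P10, 36, 69.1 and 75.5 in Adult, 29.3 and 27 in Aged and 101 and 93.1 in EAE, and only P10 was called (1.45, SE 0.40, adjusted p = 0.0351, but 1.49, adjusted p = 0.149, with Aged and EAE as 1 unit each). The highest values of any cells came from 32 fenestrated ECs of Juvenile 1 and 2, at 3802 and 4071 CPM. These cells carried 39% and 39.6% of the EC Igfbp3 UMIs of their libraries, and Adult had 0 cells of that name. In Juvenile 3 and 4, 1 and 6 such cells carried 0.143% and 17.4%. Without fenestrated ECs the Juvenile libraries read 145, 95.3, 97.8 and 85.2 CPM, still above Adult (1.02, SE 0.28, adjusted p = 0.0283, 35.8% called). Choroid plexus Igfbp3 never passed 4.52 CPM, and its call in EAE (-1.47, adjusted p = 0.0442) lies at that level.

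Igfbp7, secreted by vessel walls, was called in ECs and in no contrast of mural cells. Mural cells ran from 5011 to 7341 CPM over all libraries with log2 changes of 0.09 in Juvenile and -0.10 in Aged (edgeR adjusted p = 0.848 and 0.949). ECs read 2973, 2947, 3219 and 3192 CPM at P10, 2048, 2594 and 2573 in Adult, 2472 and 2422 in Aged and 3977 and 3783 in EAE. P10 was 1.42-fold above Adult (0.50, SE 0.15, adjusted p = 0.0298) and EAE 1.9-fold above (3880.2 ± 137 against 2316 ± 378 CPM, 0.93, SE 0.15, adjusted p = 0.00267). With Aged and EAE as 1 unit each neither passed (adjusted p = 0.208 and 0.126). In EAE venous ECs, 1125 cells against 303 in Adult, were higher, at 3734 and 3552 CPM against 777, 1482 and 1461 in Adult (1.75, SE 0.22, adjusted p = 1.57e-09, 1.497 to 1.784 in the 4 starts that could be tested). The part of the make-up of that class in this rise was not tested. The tip ECs of the Juvenile and EAE libraries held 5721 to 7671 CPM, 1.23 above other ECs (adjusted p = 1.91e-04), and the 2 EAE libraries named 331 and 311 cells tip where Adult named 0. Those of EAE were led by Tubb6, Angpt2 and Errfi1 and those of Juvenile by Madcam1, Chst1 and Apod, with Angpt2 among the top 10 of both. The name need not stand for the same cells in both groups. Choroid plexus went the other way at P10, from 208 to 221 CPM in Adult to 73.8 to 95.5 (-1.48, SE 0.14, adjusted p = 4.14e-07). Microglia fell at P10 from 84.2 to 103 CPM to 32.2 to 54.9 (-1.22, SE 0.23, adjusted p = 0.00398) and in EAE to 53.8 and 38.7 (-0.78, SE 0.23, adjusted p = 0.0287). The EAE change did not pass with EAE as 1 unit (-0.73, adjusted p = 0.155) and was 0.14 (adjusted p = 0.832) when cells were named by marker score. Choroid plexus RNA scaled by Ttr amounts to 23.8% of the Adult level.

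Beside the 9 genes, 23 other genes of the pathway were listed: insulin receptor and adaptors, growth hormone receptor, further binding proteins, proteases and inhibitors that release IGFs, and RNA-binding and imprinted regulators. Of 74 tests 26 were called for Juvenile (16 higher, 10 lower), of 72 tests 22 for EAE (11 and 11), and of 74 tests 3 for Aged (1 and 2), where 21.1%, 17.4% and 1.36% of all gene by type tests were called. ECs had 8 higher and 2 lower of 16 at P10, 6 and 3 in EAE and 1 and 2 in Aged (35.3%, 24.6% and 3.56% of all EC genes called), and choroid plexus 8 and 2 of 16 at P10 and 3 and 2 in EAE (51% and 31.3% called). In ECs Grb10, an adaptor that restrains IGF1R and insulin receptor, read 73.3 to 88.4 CPM at P10, 47.3 to 54.5 in Adult and 119 in each EAE library (0.69 and 1.38, edgeR adjusted p = 5.20e-04 and 1.68e-05). Insr, the insulin receptor, stood at 133 to 139 CPM in EAE against 68.9 to 76 in Adult ECs (1.06, adjusted p = 5.86e-05).

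Choroid plexus raised Grb10 at P10 to 121 to 135 CPM from 17.3 to 26.8 (2.31, edgeR adjusted p = 6.31e-09), with Insr (1.03, adjusted p = 5.91e-05), Irs2 (1.10, adjusted p = 0.00346) and Plagl1, an imprinted zinc-finger factor (2.24, adjusted p = 0.00797). Ghr, the growth hormone receptor, rose there in EAE from 11.1 to 16.3 CPM to 36.1 to 42.2 (1.37, adjusted p = 2.48e-05). Htra1, a secreted serine protease known to cut IGF-binding proteins, fell in EAE in ECs from 125 to 159 CPM to 17.1 to 17.7 (-2.84, adjusted p = 4.62e-06), in choroid plexus (-2.74, adjusted p = 6.61e-04), in microglia (-2.97) and in PVMs (-3.63), and rose in astrocytes (0.71, adjusted p = 0.0447). It was also lower in Aged ECs (-1.10, adjusted p = 0.00498). Grb14 was lower at P10 in ECs (55.1 to 72.4 against 122 to 143 CPM, -0.95, adjusted p = 2.64e-04) and in choroid plexus (-1.38, adjusted p = 1.08e-04).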

How the data were processed

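The deposited files hold whole-number UMI counts per gene and cell barcode for 11 libraries. Per the labels, the authors used the 10x 3' v2 kit, and the submitters' processing notes name bcl2fastq 2.19.1.403, UMI-tools 0.5.3, STAR 2.5.3a on mm10 and featureCounts 1.6.1, where the study's methods name other releases of the last 3 tools, and the counts were not normalized. Cells with over 500 and under 6000 genes and under 25% mitochondrial UMIs were kept (54646 barcodes, 50625 cells). Seurat 5.3.0 (R 4.3.3) clustered them (12 components, resolution 0.5) without the 9 genes, and clusters were named from marker lists with limits set after clusters were seen. ECs and PVMs (within groups) and mural cells were clustered again at resolution 0.8 without the 9 genes, and 1 of 5 random starts is shown. Scrublet marked 818 cells (1.62%), kept in the main fit. UMIs were summed by cell type and unit (at least 10 cells) and tested two-sided by the quasi-likelihood F test of edgeR 4.0.16, with robust dispersions, TMM scaling and the filterByExpr minimum, with Benjamini-Hochberg adjustment over all genes of a type and a call below 0.05. Medians of 2420 to 4199.5 UMIs a cell set the precision, and shares cover counting error only. Text names all 9 genes and, of the pathway genes, only some of those past the test. Members and lists were chosen with earlier results of these data known. Alternatives were DESeq2 1.42.0, RLE scaling, no filter, other clusterings and naming, doublets removed, each library left out and a replicate block. The tests were checked on simulated counts.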

Additional observations from a re-analysis of the deposited data

Results flagged for a closer look

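Chance sets about 1 group in 20 apart by Dixon's test, and 54 groups of 4 Juvenile libraries were tested. That rate supposes independent libraries, and since Juvenile 1 and 2 and Juvenile 3 and 4 were near repeats it does not hold exactly here. In 5 of them 1 library stood away from the other 3. Igf1 in choroid plexus was low in 1 library (45.7 CPM against 55.3, 55.4 and 55.6, a gap of 0.967 of the range). High values were Igf2r in ependymal cells (84.7 CPM against 53.6, 56 and 57.3, gap 0.88), Igfbp4 in PVMs (960.1 CPM against 769, 774 and 795, gap 0.867), Igfbp7 in astrocytes (234 CPM against 103, 103 and 124, gap 0.838) and Igfbp7 in PVMs (177 CPM against 61.5, 63.5 and 79.9, gap 0.841).

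Several contrasts had opposite signs in a pair of cell types, by a test of the difference itself (edgeR interaction, adjusted p, difference of log2 changes). The pairs were taken because their calls had opposite signs, so the direction of each difference was fixed by that choice, and the same tests called from 0.707% to 32.4% of all genes. For Juvenile against Adult, Igf1r differed between choroid plexus and ECs by 2.11 (7.79e-07), mural cells by 2.16 (0.0011) and PVMs by 2.24 (0.00652). Igf2 differed between astrocytes and choroid plexus by -3.06 (3.61e-14), and Igfbp7 between choroid plexus and ECs by -1.94 (4.04e-07) and between ECs and microglia by 1.69 (0.00131). Between pericytes and SMCs, Igfbp2 differed by -3.40 (0.00138) and Igfbp4 by 4.96 (3.11e-07). Choroid plexus RNA scaled by Ttr amounts to 164% of the Adult pericyte level of Igfbp2 and 228% of the Adult SMC level, so its part in the Igfbp2 difference was not tested, and to 6.92% and 0.3% for Igfbp4. For EAE against Adult, Igfbp7 differed between ECs and microglia by 1.68 (3.85e-04), although the microglial change was 0.14 with cells named by marker score. Igf1r also differed between arterial and capillary ECs at P10 by 2.33 (1.61e-09), and between arterial and venous ECs by 2.74 (3.14e-17) at P10 and 4.16 (2.06e-23) in Aged against Adult. These last 3 values hold for the sub-clustering shown only: with other random starts the arterial change of Igf1r took both signs (-1.16 to 1.32 at P10 and -0.45 to 2.33 in Aged).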

How the results depend on the processing

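Of 44 called gene by type tests, 14 were called under every alternative planned and 1 turned direction under one. Counts of calls for Aged against Adult were 2 as reported, 9 with DESeq2, 12 without the filter on low counts, 6 with each of 11 libraries a replicate, 1 with cells named by marker score and 1 among genes reaching 20 CPM, an alternative added after seeing the data. With the Aged pair and the EAE pair each summed to 1 unit, added after seeing the data, EAE gave 10 calls instead of 21. Without unnamed PVMs and mural cells, also added, 17, 3 and 20 were called for Juvenile, Aged and EAE. Leaving out 1 library at a time gave 0 to 4 calls for Aged, 19 to 22 for Juvenile, 6 to 23 for EAE, 9 to 15 for EC segments, 7 to 8 genes with a distinct highest type and 1 to 2 for PVM subsets. The EAE count of 21 fell to 8 without EAE replicate 1 and 6 without EAE replicate 2, where the lone library is assumed to vary like the others.

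Replicate numbers gave no clear pairing of the libraries: 2 of 13 same-numbered pairs correlated above 0.1 in ECs and 1 of 13 in microglia. These pairs are not independent, since in a group of 2 libraries the deviations mirror each other, so the check cannot exclude pairing. With each of 11 libraries a replicate, 25, 27 and 6 gene by type tests were called for Juvenile, EAE and Aged, against 24, 23 and 4 with a replicate block added. EC segments gave 12 calls as reported, 19 without the filter and 14 to 16 with 4 other random starts of the sub-clustering, an alternative added after the cells named arterial in Adult were seen to move between runs. PVM subsets gave 2 in each start. Where the whole type or the subtype passed the test, opposite signs within a subtype were seen for Igf1r in arterial ECs in Aged (2.23) and at P10 (1.24), Igf2r in venous ECs in Aged (0.59), Igfbp2 in pericytes at P10 (-1.65, and -1.15 without the cluster led by haemoglobin genes), and Igfbp4 in SMCs at P10 (-1.52, and -1.28 without the cluster led by cycling genes). The EC values are from the start shown, and no direction is read from them. Aged venous ECs, 89 cells there, ran up to 687 over the starts. Igfbp2 in capillary ECs at P10 was 0.51 without the cluster led by immune genes (adjusted p = 0.00338), in a fit that called 36.1% of genes against 26.6% with it. The change was 0.09 with that cluster and -0.93 in all ECs, neither of these called. These exclusions were added after seeing the data, and SMCs without clusters 5, 10 and 11 could not be fitted. With cells named by marker score the sign turned for Igfbp7 in microglia in EAE, a call (-0.78 as reported, 0.14), and for Igfbp3 in choroid plexus at P10, no call as reported (1.76). The cause was not tested.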
